A study of Mus musculus with 9 samples.

Results

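Chemokines and their receptors were followed in liver RNA of mice with and without miR-122. The members were all rows of the deposited table whose gene symbol follows the naming of the CC and CXC ligands, the CC and CXC receptors or the atypical receptors, together with Cx3cl1, Cx3cr1 and Xcr1. This gave 66 of 30519 rows, 44 for ligands and 22 for receptors, which carry 60 different symbols. Each row is 1 transcript, and 7 rows, copies of Ccl19, Ccl21a and Ccl27a and all rows of Ccl21c, are not placed on a chromosome by the annotation used.

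The study sequenced polyA RNA from whole liver of mice aged 6 weeks. The knockout group (KO) held 4 miR-122 KO mice, 1 female and 3 males, and the control group (WT) held 5 floxed littermates, 3 females and 2 males. The labels name no treatment and no allele other than miR-122. The sources used here do not give the promoter that drives the recombinase or the cells in which miR-122 was deleted. The liver powder came from frozen tissue, and the portion used for RNA was not crosslinked. The comparison asks which transcripts change when the microRNA is gone. Each library is named below by its group and replicate number, as KO1 to KO4 and WT1 to WT5.

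Chemokines are small secreted or membrane-bound proteins that bind G protein-coupled receptors on leukocytes and direct their movement into tissue. CC and CXC ligands are named for the spacing of their conserved cysteines, and atypical receptors bind ligands without classical G protein signalling. In liver, CCL2 and its receptor CCR2 are known for bringing in monocytes, CXCL1, CXCL2 and CXCL5 for bringing in neutrophils through CXCR2, and CXCL9, CXCL10 and CXCL11 for bringing in T cells through CXCR3. miR-122 is a microRNA of hepatocytes, and Ccl2 has been published as a direct target of it.

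Many ligand genes lie next to each other, and promoter sequences are shown here for 3 neighbouring CXCR2 ligands and for Cxcl10, chosen after their values were seen. The sequences are the 250 bases before the annotated start in RefSeq (GRCm38.p6), 5′ to 3′ on the gene's strand. Capitals mark matches to the NF-kB consensus and, in Cxcl10, also to GAAANNGAAA, the core of an interferon-response element. The intervals are chr5:90890995-90891244 (plus strand) for Cxcl1, chr5:90903649-90903898 (plus) for Cxcl2, chr5:90785851-90786100 (plus) for Cxcl3 and chr5:92348890-92349139 (minus) for Cxcl10.
Cxcl1: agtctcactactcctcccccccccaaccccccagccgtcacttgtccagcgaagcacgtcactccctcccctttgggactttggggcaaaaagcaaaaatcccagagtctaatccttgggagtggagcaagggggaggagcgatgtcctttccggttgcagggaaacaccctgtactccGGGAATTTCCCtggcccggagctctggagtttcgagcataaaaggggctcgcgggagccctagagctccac
Cxcl2: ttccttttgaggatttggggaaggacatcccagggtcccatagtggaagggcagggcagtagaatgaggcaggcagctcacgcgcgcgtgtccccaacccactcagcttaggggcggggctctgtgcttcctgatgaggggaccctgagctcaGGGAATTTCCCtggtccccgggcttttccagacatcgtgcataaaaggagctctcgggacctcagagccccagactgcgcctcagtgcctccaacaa
Cxcl3: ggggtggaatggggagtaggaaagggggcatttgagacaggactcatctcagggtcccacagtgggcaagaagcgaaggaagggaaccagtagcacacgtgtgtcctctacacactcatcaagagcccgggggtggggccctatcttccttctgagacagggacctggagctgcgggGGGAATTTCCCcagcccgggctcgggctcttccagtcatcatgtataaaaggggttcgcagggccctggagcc
Cxcl10: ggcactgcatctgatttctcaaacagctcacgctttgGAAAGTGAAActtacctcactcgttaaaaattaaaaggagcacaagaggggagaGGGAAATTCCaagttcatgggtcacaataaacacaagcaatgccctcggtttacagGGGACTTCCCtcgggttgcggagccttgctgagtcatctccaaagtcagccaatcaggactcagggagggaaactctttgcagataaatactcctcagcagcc
Cxcl1, Cxcl2 and Cxcl3 held the same match, which begins at -71, -97 and -73 relative to the start and reads as a match on both strands. Cxcl10 held NF-kB matches at -159 and -103 and the GAAANNGAAA match at -213. Both motifs were searched on both strands, from 250 bases before to 50 after the start, and matches could overlap. Of 32851 such windows in the genome 4.51% held the NF-kB consensus and 3.44% held GAAANNGAAA. Windows were found for 44 member genes, of which 10 held the first motif (Cxcl1, Cxcl2, Cxcl3, Cxcl10, Ccl9, Ccl20, Ccl27a, Ccr3, Ccr6 and Ackr2) and 3 the second (Cxcl10, Cxcl14 and Ccl19). A match is a description of these letters, not a binding site.

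Chemokine levels were low for most members. Values are abundances per transcript length, divided by a size factor for each library. Of the 66 rows, 22 averaged 1 or more over all libraries and entered the main test, limma on log2(value + 1) over 10950 transcripts at an adjusted p of 0.05 (Benjamini-Hochberg). Another 25 had a mean from 0.1 to 1. They entered a wider test over 15413 transcripts, on log2(value + 0.1). The remaining 19 lay under 0.1, and 4 of these, namely Ccl26, Ccl27b, the second copy of Ccl19 and the third copy of Ccl27a, were listed at 0 in every library.

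In the main test 11 of the 22 members rose in KO and none fell, 8 of 17 ligands and 3 of 5 receptors. Over all transcripts tested 35.9% were called, 21.4% as higher and 14.5% as lower. The 11 members without a call at the adjusted threshold were 9 ligands and 2 receptors. The median log2 difference was 0.56 over the 22 members and 0.03 over all transcripts. In the wider test 21 of 47 members were higher and 2 lower. The 18 ligands among these calls became 10 to 16 when 1 library was left out, with 11 without KO3, 10 without KO4 and 11 without WT4. Over all transcripts in that test 30.3% were called, 19.9% as higher and 10.4% as lower. Every KO library lay above every WT library for 10 of the 22 members (19.0% of all transcripts) and for 15 of the 47 (19.1%). Every KO library lay below every WT library for 1 of the 47 (9.06% of all transcripts). A member that is near 0 in WT could pass the filters only by being high in KO, so these shares describe the members that passed and no others. The authors' deposited table tested 35 members and gave a q-value under 0.05 to 11 higher and 1 lower, against 13.6% and 11.6% of its 13540 transcripts.

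The balance of calls over all transcripts depends on the scaling, since library totals, in units of M (mega), were 0.711 to 0.869 in KO and 0.873 to 1.17 in WT. On the deposited scale 59.6% of calls in the main test were higher in KO. With every library set to the same total this was 94.4% and the median of all transcripts moved to 0.37. With median-of-ratios factors it was 46.8%, with a median of -0.05. Of the members, 11 ligands were higher with equal totals and 8 with median-of-ratios factors, 3 receptors were higher under both, and none was lower. In whole tissue, more cells of a type and more RNA per cell cannot be told apart for any result below.

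**Figure D1:**
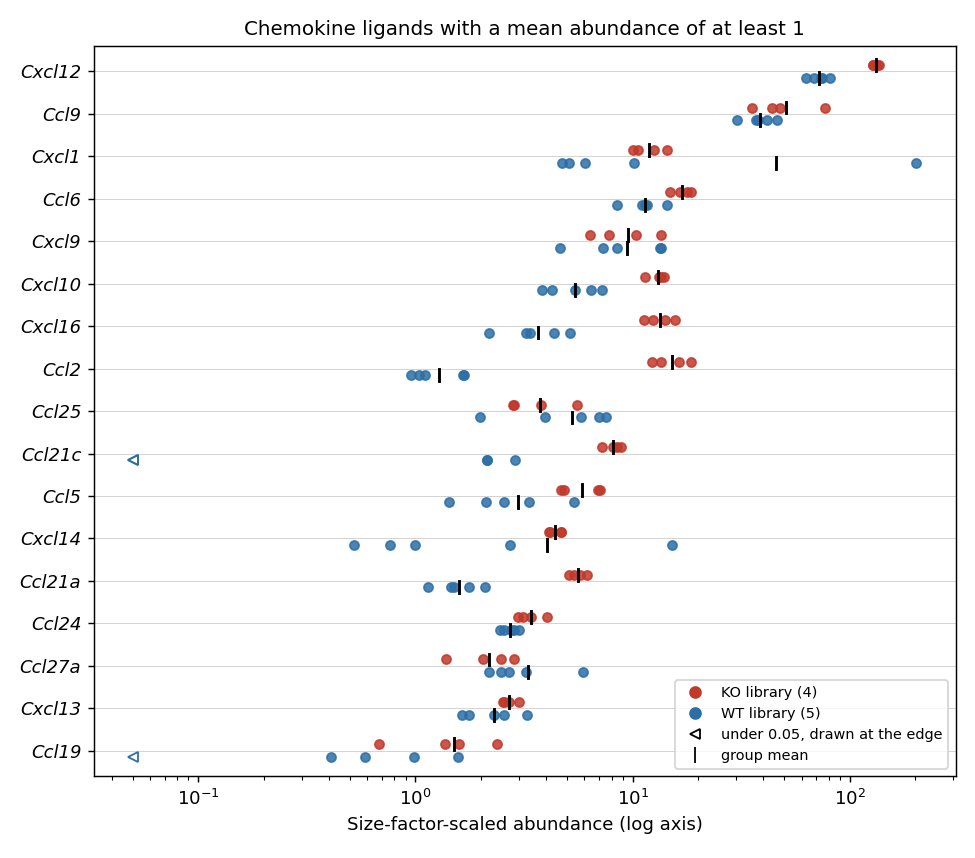
Abundance of the 17 ligands with a mean of at least 1, on a log axis. Each point is 1 library (red for 4 KO, blue for 5 WT), black bars are group means, and open triangles are values under 0.05. KO and WT points are fully apart for Ccl2, Cxcl16, Cxcl10, Cxcl12, Ccl6, Ccl21a and Ccl21c, while WT5 stands far right of all other points for Cxcl1 and Cxcl14.

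Among the CCR2 ligands, which attract monocytes, Ccl2 was 11.8-fold higher in KO. Its abundance was 13.5, 12.2, 18.6 and 16.4 in KO1 to KO4 and 1.11, 1.04, 0.949, 1.66 and 1.67 in WT1 to WT5. All KO livers were far above all WT livers, and the means were 15.2 ± 2.86 (SD, n = 4) and 1.29 ± 0.351 (SD, n = 5). The difference was 2.82 ± 0.15 (SE) on the log2(value + 1) scale, with an adjusted p of 1.71e-06 in limma. About 134 to 203 normalised reads stood behind each KO value and 10.4 to 18.2 behind each WT value.

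Ccl2 opens a row of 6 ligand genes on chromosome 11 (82035571 to 82179812, GRCm38; Ccl2 itself at 82035571 to 82037453, plus strand). The next gene, Ccl7, encodes another monocyte attractant. Its abundance was 0.389, 0.431, 0.637 and 0.998 in KO1 to KO4, and in WT it was listed at 0 in WT1 and WT4 and at 0.264, 0.0967 and 0.463 in WT2, WT3 and WT5. The groups overlapped through WT5. Ccl7 was called higher in the wider limma test (1.69 ± 0.56 on the log2(value + 0.1) scale, adjusted p = 0.0458), and that call was lost when any of 7 libraries (each KO, WT1, WT3 or WT4) was left out, with adjusted p of 0.0627 to 0.119. Ccl12, a mouse ligand of CCR2, had reads in KO3 (0.902), KO4 (0.254) and WT2 (0.145) only. Ccl8 lay under 0.31 in every library and under the filter of the wider test.

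Ligands of CCR1 and related receptors lie in a second row on chromosome 11 (83525778 to 83664683). Ccl5, known as RANTES and made by T cells, NK cells and platelets, was at 4.81, 4.69, 6.94 and 7.06 in KO1 to KO4 and at 5.40, 3.33, 2.57, 2.11 and 1.42 in WT1 to WT5. WT1 lay within the KO range and the other WT livers lay below it. The ratio of means was 1.98, with a log2 difference of 0.85 ± 0.26 (limma adjusted p = 0.028). This call was lost without KO3, KO4, WT3 or WT4 (limma adjusted p of 0.0563 to 0.0782), and the authors' deposited table gave Ccl5 a q of 0.226.

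Ccl6, a macrophage and myeloid ligand of CCR1, was at 16.5, 18.6, 14.8 and 17.9 in KO1 to KO4 and at 11.6, 8.49, 14.5, 10.998 and 11.5 in WT1 to WT5. The lowest KO liver stood just above the highest WT liver. The ratio of means was 1.48, with a log2 difference of 0.55 ± 0.13 (limma adjusted p = 0.0104), and the q in the authors' deposited table was 0.0561. The row used for Ccl6 is annotated as a retained-intron transcript, so it need not follow the coding transcript. Ccl9, another CCR1 ligand, was the second most abundant member, at 50.9 ± 17.8 in KO and 38.5 ± 5.84 in WT on a processed, non-coding transcript (limma adjusted p = 0.211). The interval of its log2 difference ran from -0.11 to 0.80. Ccl3 and Ccl4, known as the macrophage inflammatory proteins, were low in both groups, with KO means of 0.422 and 0.619 and WT means of 0.153 and 0.253. Neither was called in the wider test (limma adjusted p = 0.159 and 0.0964), although without WT5, the highest WT liver for Ccl3, Ccl3 was called higher (1.6, limma adjusted p = 0.0469).

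Among the eosinophil-attracting ligands, Ccl24 (eotaxin 2) was at 3.39 ± 0.474 in KO and 2.73 ± 0.226 in WT and was not called (limma adjusted p = 0.0849). Ccl11 (eotaxin) lay between 0.0913 and 0.32 in KO, and in WT it was listed at 0 in WT2, WT4 and WT5 and at 0.0612 and 0.136 in WT1 and WT3. Its WT mean of 0.0394 lay under the filter, so it was tested only through its KO values. It passed the wider test narrowly (limma adjusted p = 0.0498), with at most 4.89 reads behind a value, and 10 of its 14 alternatives ended the call, among them leaving out KO4, WT1, WT2, WT4 or WT5 (0.0626 to 0.0953). The third eotaxin, Ccl26, was listed at 0 in every library. Markers of eosinophils, basophils and mast cells were near 0 throughout, with all 8 listed genes under a mean of 1 and sums of 0.288 to 1.91 in KO and 0.178 to 1.29 in WT.

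The ligands of lymphocytes and dendritic cells made up the largest group, with 18 rows. The 2 called in the main test, Ccl21a and Ccl21c, are near-identical copies of the CCR7 ligand of lymphatic endothelium and stromal cells, so their separate values are uncertain. Ccl21a was at 5.09, 5.75, 6.16 and 5.39 in KO1 to KO4 and at 2.09, 1.46, 1.498, 1.14 and 1.76 in WT1 to WT5. Ccl21c was at 7.19, 8.09, 8.44 and 8.84 in the KO livers and at 2.88, 2.12 and 2.13 in WT1 to WT3, and was listed at 0 in WT4 and WT5. Both sets of KO livers were above every WT liver. The log2 differences were 1.36 ± 0.11 for Ccl21a (limma adjusted p = 2.82e-05) and 2.14 ± 0.43 for Ccl21c (limma adjusted p = 0.00381). The q of Ccl21c in the authors' deposited table was 0.0751.

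Summed over the 6 rows of Ccl21 genes, the level was 12.3, 13.98, 14.6 and 17.0 in KO1 to KO4 and 5.09, 3.58, 4.52, 1.51 and 2.29 in WT1 to WT5. The KO livers were again all higher, with a ratio of means of 4.26. The two-sided exact permutation p was 0.0159, the smallest that 4 against 5 livers can give. It follows from the separation of Ccl21a and Ccl21c given above, which make up most of the sum, and is no further support. Ccl19, the other CCR7 ligand, was at 0.676 to 2.37 in KO and from 0 to 1.58 in WT, without a call (limma adjusted p = 0.147). Among males alone Ccl19 was called higher (1.21, limma adjusted p = 0.0242). Its row is a processed, non-coding transcript.

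A row of 3 genes on chromosome 8 (94745590 to 94812036) holds Ccl22, Cx3cl1 and Ccl17. All 3 were higher in KO in the wider test, beside 19.9% of all transcripts called higher. Ccl17 and Ccl22 had WT means of 0.0648 and 0.0652, under the filter of 0.1, so they were tested only through their KO values. Ccl17, a CCR4 ligand made by dendritic cells, was at 0.567, 1.14, 1.12 and 0.676 in KO1 to KO4. In WT it was at 0.154 and 0.170 in WT2 and WT3 and was listed at 0 in WT1, WT4 and WT5. The groups did not overlap, but a WT value rested on at most 1.04 reads and a KO value on 3.48 to 7.003 (2.68 ± 0.42 on the log2(value + 0.1) scale, limma adjusted p = 0.00146). Ccl22, the second CCR4 ligand, was at 0.117 to 0.482 in KO and 0 to 0.195 in WT. KO3 lay below WT1 and WT2, and the call (limma adjusted p = 0.0459) was lost in 9 of 16 alternatives, including without KO1, KO2, KO4 or any of WT3 to WT5 (0.0829 to 0.124). Ccl22 also stands on the list of dendritic cell markers.

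Ccl20, the ligand of CCR6 on B cells and dendritic cells, was listed at 0 in KO1 and in all 5 WT livers and was at 0.425, 0.368 and 1.01 in KO2 to KO4. It passed the filter only through its KO values. Its call in the wider test (limma adjusted p = 0.0306) was lost in 8 of 15 alternatives, including without KO2, KO3 or any of WT1 to WT4 (0.0533 to 0.0791). Ccl28, an epithelial ligand of CCR10 and CCR3, went the other way. Its abundance was 0.133, 0.0955, 0.249 and 0.117 in KO1 to KO4 and 1.13, 0.295, 1.04, 0.644 and 0.646 in WT1 to WT5. Every KO liver was below every WT liver, with a KO mean that was 5.05-fold lower and 5.53 to 14.4 reads behind a KO value. The log2 difference was -1.70 ± 0.36 in the wider test (limma adjusted p = 0.00642), and Ccl28 was the only member with a q under 0.05 for a lower level in the authors' deposited table (0.00145). Among males alone it was not called (limma adjusted p = 0.0566).

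Ccl25, a CCR9 ligand of gut and thymus, was at 3.75 ± 1.27 in KO and 5.24 ± 2.29 in WT, on a processed, non-coding transcript (limma adjusted p = 0.428). Ccl27a, a skin ligand of CCR10, was at 2.18 ± 0.63 and 3.30 ± 1.51 on a retained-intron transcript (limma adjusted p = 0.213). Ccl1, a CCR8 ligand, had about 1 read in WT2 and none elsewhere. The remaining copies and Ccl21b stood at or below 0.0458, apart from a copy of Ccl27a with 0.591 in KO2 and the second copy of Ccl21a. That copy was at 2.82 in KO4, 0 in the other KO livers and 0.371 to 0.893 in WT3 to WT5.

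The CXC ligands that attract neutrophils through CXCR2 have 5 members, of which 4 passed the wider filter. Their genes lie together on chromosome 5 (90759378 to 90905938). Cxcl5, made by epithelial cells, was at 0.836, 0.993, 1.73 and 1.37 in KO1 to KO4 and at 0.116, 0.117, 0.0439, 0.126 and 0.136 in WT1 to WT5. The KO livers were all above the WT livers, with a ratio of means of 11.4 and 19.4 to 40.2 reads in KO against 1.02 to 3.16 in WT. The difference was 2.65 ± 0.27 on the log2(value + 0.1) scale (limma adjusted p = 0.000127).

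Cxcl2, an early neutrophil attractant of macrophages, was at 0.329, 0.520, 0.594 and 1.06 in KO1 to KO4. In WT it was listed at 0 in WT1 and WT2 and was at 0.0701, 0.205 and 0.336 in WT3 to WT5. WT5 lay just above KO1 and the other WT livers lay below the KO range. It was called higher (1.87 ± 0.51, limma adjusted p = 0.0216), but not without KO3 (0.054) or KO4 (0.065) or among males alone (0.126). Cxcl3 was found in all 4 KO livers, at 0.0494 to 0.234 or 0.702 to 3.32 reads, and was listed at 0 in all 5 WT livers. It lay under the filter and was not tested. Cxcl15, a lung chemokine, was at 0 to 0.192 in KO and 0.118 to 0.226 in WT (limma adjusted p = 0.369).

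Cxcl1, which carries the same promoter match as Cxcl2 and Cxcl3, turned on 1 control liver. It was at 14.5, 10.6, 9.9995 and 12.5 in KO1 to KO4 and at 5.10, 6.02, 4.72, 10.1 and 203 in WT1 to WT5. Outside WT5, 3 WT livers lay below the KO range and WT4 lay just inside it. Over all livers the log2 difference was -0.14 ± 0.95 (limma adjusted p = 0.923), and without WT5 it was 0.82 (limma adjusted p = 0.0151). Cxcl14 had the same shape. This chemokine of epithelia and stroma was at 4.67, 4.13, 4.67 and 4.15 in the KO livers and at 0.996, 0.523, 0.763, 2.74 and 15.1 in WT1 to WT5. Its log2 difference was 0.77 ± 0.61 (limma adjusted p = 0.36) over all livers and 1.35 (limma adjusted p = 0.00351) without WT5. WT4 and WT5, the highest WT livers for both genes, are the WT livers labelled male, so leaving out WT5 also shifts the sex balance. Among males alone the log2 difference was -1.99 for Cxcl1 (limma adjusted p = 0.249) and -0.55 for Cxcl14 (limma adjusted p = 0.527). With sex as a covariate it was -0.72 for Cxcl1 (limma adjusted p = 0.571).

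The summed levels of neutrophil markers and of platelet and erythroid markers were also high in WT5 among the WT livers. The 12 neutrophil markers summed to 71.7 in WT5, to 14.2 to 24.4 in the other WT livers and to 63.2 to 138 in the KO livers. Of the neutrophil markers 6 were tested and 4 were higher in KO, led by S100a9, Csf3r and S100a8. Over all transcripts in the main test 21.4% were called higher. S100a8, a calprotectin subunit, was at 29.0 to 67.1 in KO, 34.8 in WT5 and 6.11 to 9.46 in the other WT livers. Ly6g, a defining neutrophil marker, was listed at 0 in 7 of 9 libraries. The 9 platelet and erythroid markers summed to 1232 in WT5, to at most 866 in the other WT livers and to 911 to 1868 in the KO livers. The high sum in WT5 came from the erythroid genes on the list, with Hba-a1 at 204 in WT5 and at 118 to 143 in the other WT livers. Among the WT livers, no platelet gene on the list was highest in WT5. The part of these cells in the values of Cxcl1, Cxcl14 and the CXCR2 ligands was not tested.

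**Figure D2:**
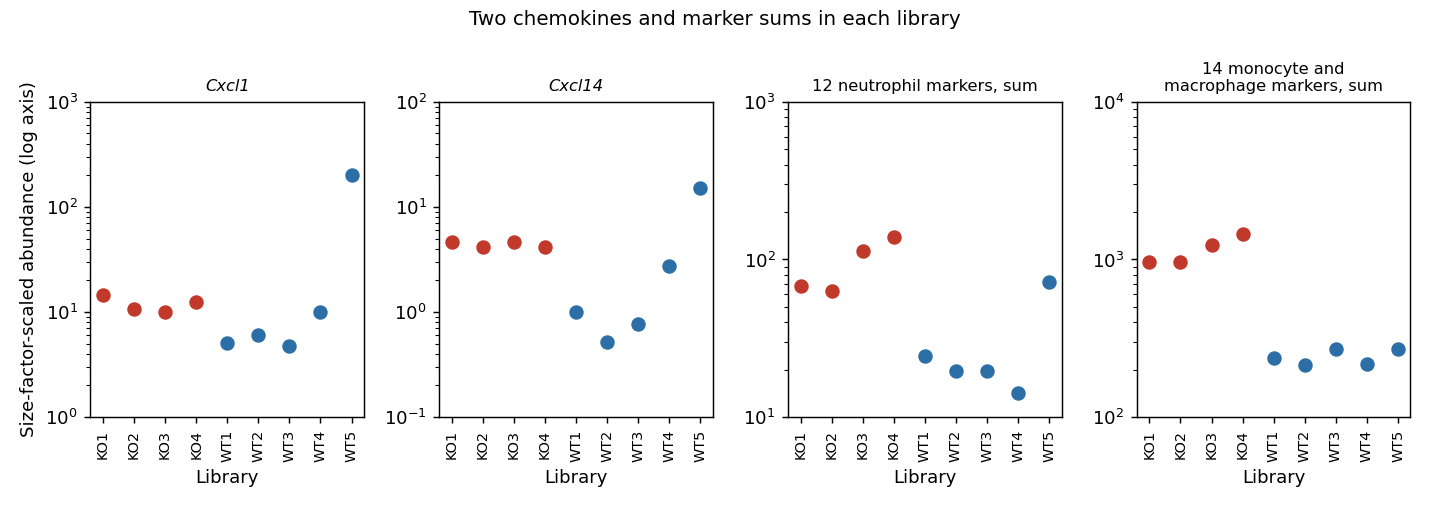
Abundance of Cxcl1 and Cxcl14 and the summed abundance of 12 neutrophil markers and of 14 monocyte and macrophage markers in each of the 9 libraries, on log axes (red for KO, blue for WT, 1 point per library). WT5 stands above every other library for both chemokines and at 71.7 for the neutrophil sum, within the KO range of 63.2 to 138, whereas its monocyte and macrophage sum of 271 is not within the KO range.

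The 3 interferon-induced ligands of CXCR3 lie side by side on chromosome 5 (92321347 to 92365485). Cxcl10 was called higher, Cxcl11 lower in the wider test only, and Cxcl9 was not called. Cxcl10 was at 13.2, 11.5, 13.5 and 14.02 in KO1 to KO4 and at 6.47, 5.41, 3.84, 7.22 and 4.25 in WT1 to WT5. The KO livers were all higher, with a ratio of means of 2.40 and a log2 difference of 1.15 ± 0.16 (limma adjusted p = 0.000504). Cxcl9 was at 13.5, 6.38, 10.4 and 7.79 in KO and at 13.4, 13.5, 8.52, 7.29 and 4.62 in WT. The ranges of Cxcl9 lay over each other, and its log2 difference was 0.05 ± 0.30, with a 95% interval from -0.63 to 0.72 (limma adjusted p = 0.92). Cxcl11 was at 0.244, 0.281, 0.138 and 0.0924 in KO and at 1.05, 0.967, 0.174, 0.856 and 0.695 in WT. WT3 lay among the KO livers and the other 4 WT livers lay above them. Cxcl11 was called lower in the wider test (-1.45 ± 0.44, limma adjusted p = 0.0334), a call lost in 11 of 17 alternatives, including when KO1, KO3, KO4, WT1, WT2, WT4 or WT5 was left out (0.0516 to 0.0876). Its row is annotated as a polymorphic pseudogene.

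Among the other CXC ligands, Cxcl12 had the highest level per length of all members. This ligand of CXCR4 and ACKR3, made by stromal and endothelial cells, was at 137, 128, 134 and 128 in KO1 to KO4 and at 62.6, 74.3, 68.3, 81.3 and 74.1 in WT1 to WT5. The KO livers were well apart from the WT livers, with a ratio of means of 1.83 and a log2 difference of 0.86 ± 0.08 (limma adjusted p = 6.48e-05). Between 1758 and 3851 reads stood behind each value.

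Cxcl16, a membrane-bound ligand of CXCR6 that is shed by proteases, was at 11.3, 14.1, 12.5 and 15.7 in KO1 to KO4 and at 4.37, 5.13, 3.38, 2.17 and 3.21 in WT1 to WT5. The groups did not overlap, with a ratio of means of 3.66 and a log2 difference of 1.65 ± 0.18 (limma adjusted p = 0.000147). Its row is annotated as a transcript subject to nonsense-mediated decay. Cxcl13, the B cell attractant, was at 2.70 ± 0.215 in KO and 2.30 ± 0.661 in WT (limma adjusted p = 0.349). Cxcl17 had reads in KO2 and KO4 only, at most 2.47.

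Cx3cl1 (fractalkine), a membrane-bound ligand of endothelium and epithelium, was 13.8-fold higher. It was at 1.24, 1.92, 1.70 and 1.82 in KO1 to KO4 and at 0.160, 0.130, 0.0642, 0.119 and 0.130 in WT1 to WT5. Every KO liver was above every WT liver, with 63.6 to 98.1 reads in KO and 3.28 to 8.20 in WT. The difference was 3.00 ± 0.22 on the log2(value + 0.1) scale (limma adjusted p = 1.94e-05), and the authors' deposited table gave it a q of 1.2e-06.

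**Figure D3:**
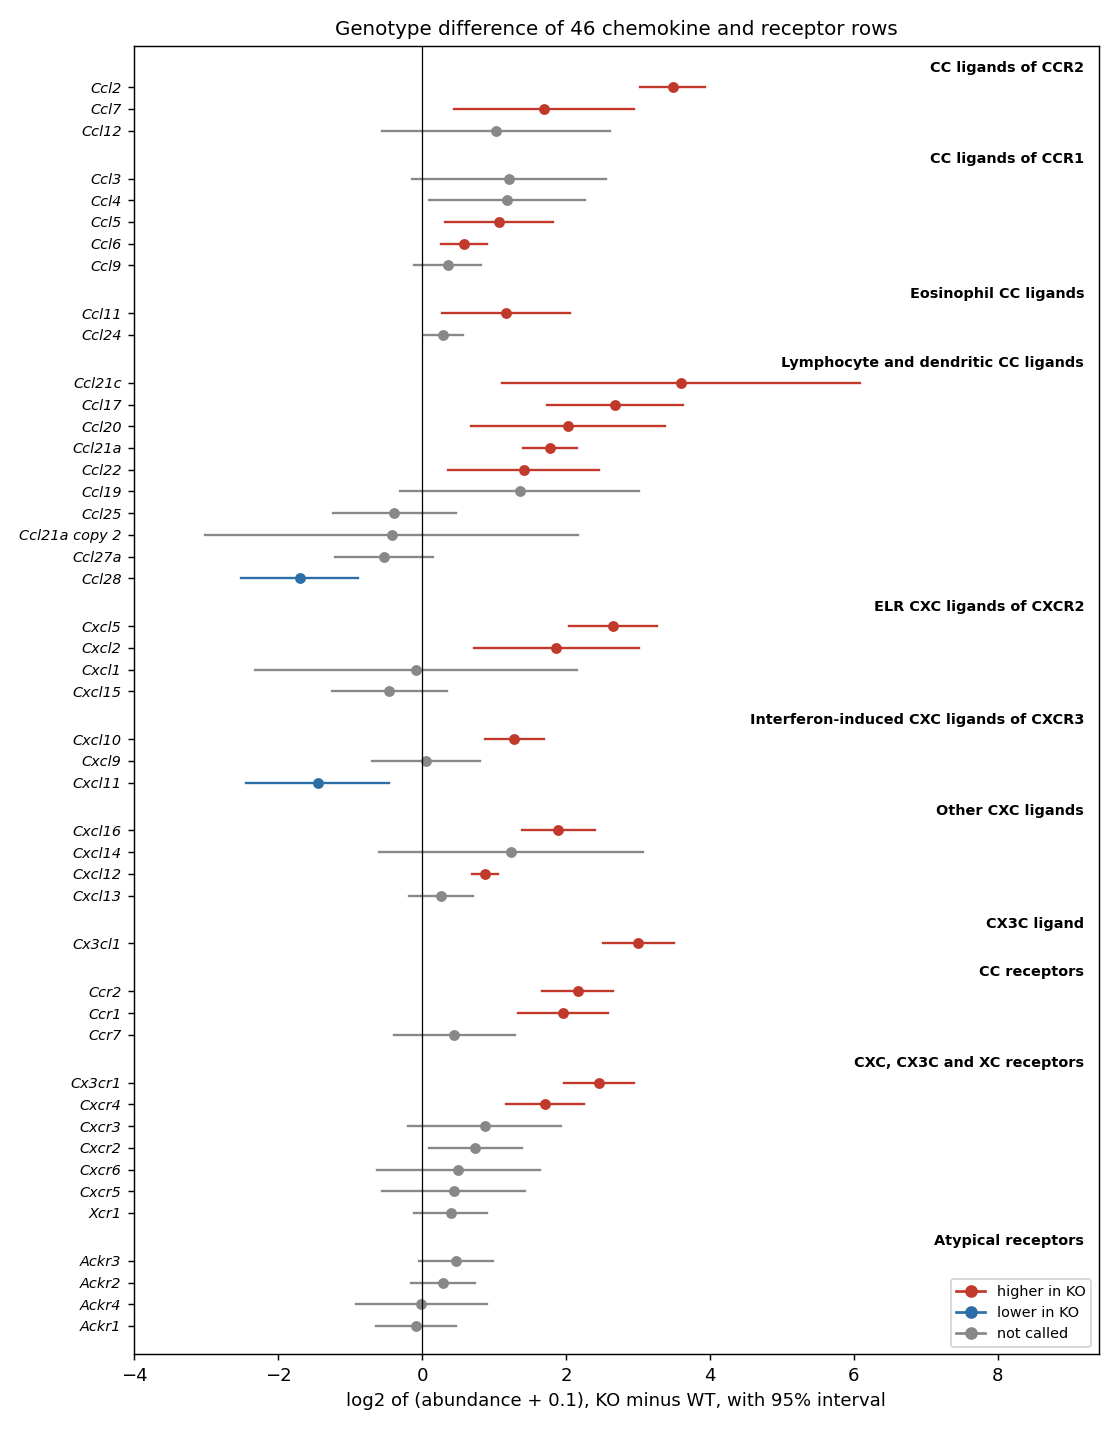
Difference between KO and WT for 46 members with a mean of at least 0.1, on the log2(value + 0.1) scale, with 95% intervals, grouped by role. Red points are called higher in KO (20), blue points lower (2: Ccl28 and Cxcl11) and grey points are not called (24), and all 4 atypical receptors are grey.

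Receptors were low, and 15 of 22 had a mean of at least 0.1. In the wider test 5 were higher in KO (19.9% of all transcripts), none was lower and 10 were not called. The authors' deposited table gave a q under 0.05 for a higher level to 5 of the 15 receptors it tested (13.6% of its transcripts). The median log2 difference over the 15 was 0.50, beside 0.11 over all transcripts in that test.

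**Figure D4:**
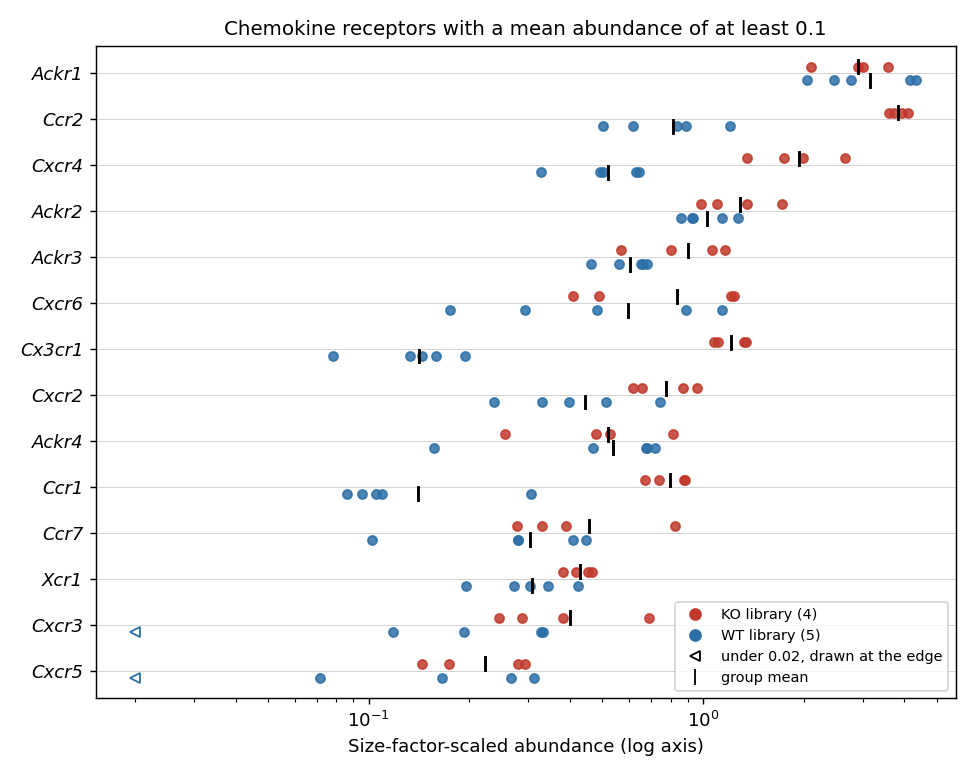
Abundance of 14 receptors with a mean of at least 0.1, on a log axis, with 1 point per library (red for 4 KO, blue for 5 WT), black bars for group means and open triangles for values under 0.02. KO points lie fully to the right of WT points for Ccr2, Cxcr4, Cx3cr1 and Ccr1, and the groups overlap for the other 10.

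The receptor of CCL2 changed in the same direction as its ligand. Ccr2, found on recruited monocytes, was at 3.59, 3.73, 4.10 and 3.93 in KO1 to KO4 and at 0.618, 0.891, 0.838, 0.503 and 1.202 in WT1 to WT5. The KO livers were all higher, with a ratio of means of 4.74 and a log2 difference of 1.43 ± 0.12 (limma adjusted p = 2.82e-05).

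Ccr1, a receptor of CCL3, CCL5, CCL6 and CCL9 on myeloid cells, was at 0.886, 0.672, 0.878 and 0.739 in KO1 to KO4 and at 0.0861, 0.109, 0.0956, 0.105 and 0.305 in WT1 to WT5. WT5 was the highest WT liver and still lay below every KO liver. The ratio of means was 5.66 and the difference 1.96 ± 0.28 on the log2(value + 0.1) scale (limma adjusted p = 0.000864), and among males alone the call was lost (limma adjusted p = 0.0559). Ccr1 and Ccr2 lie in a row of receptor genes on chromosome 9, with Cxcr6 and Xcr1, which were tested without a call, and Ccr3 and Ccr9, which lay under the filter. Ccr3, the eotaxin receptor, was at 0.0652 to 0.0968 in KO and 0 to 0.0411 in WT, without overlap, with at most 4.89 reads.

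Ccr7, the receptor of CCL19 and CCL21 on dendritic cells and naive T cells, was at 0.454 ± 0.25 in KO and 0.304 ± 0.136 in WT (limma adjusted p = 0.408). Its ligand Ccl21a was called and Ccr7 was not; the difference between the genes was not tested. Ccr4, Ccr6, Ccr8, Ccr9 and Ccr10 had means under 0.1 over the 9 libraries. Ccr4, the receptor of CCL17 and CCL22, was at 0.0963 ± 0.0236 in KO and 0.0686 ± 0.0326 in WT. Ccr10, the receptor of CCL28, was at 0 to 0.0763 in KO and 0.0593 to 0.111 in WT, with under 3 reads behind any value.

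Cx3cr1, the fractalkine receptor of monocytes and resident macrophages, was at 1.33, 1.11, 1.34 and 1.08 in KO1 to KO4 and at 0.194, 0.133, 0.145, 0.159 and 0.0779 in WT1 to WT5. All KO livers were above all WT livers, with a ratio of means of 8.57 and 62.3 to 77.6 reads in KO against 4.50 to 11.2 in WT. The difference was 2.46 ± 0.21 on the log2(value + 0.1) scale (limma adjusted p = 5.39e-05). Cxcr4, the CXCL12 receptor of many leukocytes, was at 1.35, 1.74, 2.65 and 1.99 in KO and at 0.643, 0.327, 0.501, 0.629 and 0.493 in WT. The groups did not overlap, with a ratio of means of 3.73 and a log2 difference of 0.94 ± 0.14 (limma adjusted p = 0.000874).

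Cxcr2, Cxcr3, Cxcr5, Cxcr6 and Xcr1 were tested without a call. Cxcr2, the neutrophil receptor of CXCL1, CXCL2 and CXCL5, was at 0.618, 0.654, 0.959 and 0.870 in KO1 to KO4 and at 0.514, 0.398, 0.331, 0.237 and 0.744 in WT1 to WT5. WT5 lay within the KO range and the other WT livers lay below it (0.74 ± 0.29 on the log2(value + 0.1) scale, limma adjusted p = 0.0822). Without WT5 Cxcr2 was called higher (0.91, limma adjusted p = 0.0266). Cxcr1, its close relative, lay under the filter at 0.184 or less. Cxcr3 of T cells was at 0.4 ± 0.2 in KO and 0.194 ± 0.142 in WT (limma adjusted p = 0.197). Cxcr5 of B cells, Cxcr6 of T and NK cells and Xcr1 of cross-presenting dendritic cells gave adjusted p of 0.494, 0.492 and 0.218 in limma. T and NK cell markers were low, with 13 of 16 under a mean of 1 and sums of 12.3 to 20.0 in KO and 6.19 to 11.9 in WT. Of the 3 tested only Gzma was higher, beside 21.4% of all transcripts in the main test.

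The 4 atypical receptors, which take up or present ligands, all overlapped between the groups and none was called in either test. Ackr1 (the Duffy antigen) was at 2.90 ± 0.605 in KO and 3.15 ± 1.04 in WT, with a log2 difference of -0.07 and a 95% interval from -0.50 to 0.36. Ackr2, a scavenger of inflammatory CC ligands, was at 1.29 ± 0.325 and 1.02 ± 0.173 (0.17, interval -0.11 to 0.45). Ackr3, which takes up CXCL12, was at 0.898 ± 0.267 and 0.603 ± 0.0902. Ackr4, which takes up CCL19 and CCL21, was at 0.519 ± 0.229 and 0.539 ± 0.234. With every library set to the same total, Ackr3 was called higher (0.83, limma adjusted p = 0.0259). The missing calls do not show that levels were equal.

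Components that carry the receptors' signal were described from a list of 43 genes. Of 32 tested, KO was higher for 21 and lower for none (21.4% and 14.5% of all transcripts), with a median log2 difference of 0.51. Gnai2, a G protein subunit through which chemokine receptors signal, was at 50.6 ± 1.16 in KO and 28.3 ± 2.32 in WT (limma adjusted p = 4.28e-05). The related subunit Gnai3, named after its value was seen, was at 48.6 ± 3.04 and 46.7 ± 1.93, without a call (limma adjusted p = 0.547). Rgs10, which shortens that signal, was at 6.56 ± 0.527 and 2.11 ± 0.604, and Elmo1, which couples receptors to Rac and migration, was at 1.93 ± 0.266 and 0.483 ± 0.128.

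Of 28 listed inducers of chemokine genes 22 were tested, 12 were higher in KO and 1 was lower, beside the same shares of all transcripts. Tlr2, a receptor for bacterial lipoproteins, was at 3.95 ± 0.715 in KO and 1.02 ± 0.187 in WT (limma adjusted p = 5.77e-05). Nfkb2, a subunit of NF-kB, was at 4.56 ± 1.17 and 1.33 ± 0.233, and Birc3, which acts downstream of the TNF receptor, was at 9.02 ± 1.01 and 5.64 ± 0.457. Chuk, the kinase IKK alpha, was lower at 25.05 ± 2.83 against 38.4 ± 4.07 (limma adjusted p = 0.00156).

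Among 16 genes for the cleavage, shedding and presentation of chemokines, 13 were tested, 7 were higher and 1 was lower, again beside 21.4% and 14.5%. Adam10, the protease that sheds CX3CL1 and CXCL16, was at 24.0 ± 1.99 in KO and 11.99 ± 1.14 in WT (limma adjusted p = 4.98e-05). Mmp2 and Mmp14, matrix proteases that cut several CC ligands, were at 5.28 ± 0.774 against 1.38 ± 0.211 and at 18.2 ± 2.08 against 10.3 ± 1.94. The heparan sulfate carrier Sdc2 was lower at 72.1 ± 7.91 against 88.4 ± 8.83 (limma adjusted p = 0.0483).

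Markers of cells that carry or make these proteins are given by list, beside the 21.4% of all transcripts called higher and 14.5% called lower. Of 14 listed markers of recruited monocytes and macrophages 8 were tested and 6 were higher, with sums of 964 to 1448 in KO and 214 to 271 in WT, or 411 to 530 and 181 to 228 without Spp1, which is also a cholangiocyte gene. Of 12 Kupffer cell markers 11 were higher (467 to 578 against 248 to 339). Of 10 dendritic cell markers 3 of 3 tested were higher (289 to 431 against 69.9 to 118). The dendritic sums were mostly Cd74 (223 ± 36.0 in KO, 51.3 ± 8.71 in WT) and H2-Ab1 (130 ± 24.0 in KO, 33.2 ± 10.2 in WT). The 7 dendritic markers that were not tested had means under 1, and not all of them had a higher mean in KO. Of 10 stellate cell and fibroblast markers 9 were higher (301 to 355 against 128 to 229), and of 10 cholangiocyte markers 6 of 7 tested. The cholangiocyte sums were 29.3 to 48.5 in KO and 5.79 to 7.54 in WT without Spp1. Endothelial marker sums were 93.0 to 109 in KO and 80.0 to 114 in WT, with 2 of 9 tested higher and Lyve1 lower. Of 8 B and plasma cell markers 3 were tested and 2 were higher (53.9 to 77.1 against 31.6 to 57.6), and of 9 platelet and erythroid markers 2 of 4 tested. Of 9 hepatocyte markers tested, none was higher and 2 were lower. No listed marker was at 0 in every library, and the part of cell numbers in the chemokine and receptor values was not tested.

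Genotype and sex were unequally mixed, with 1 female among 4 KO and 3 females among 5 WT livers. A genotype-by-sex term was fitted over all transcripts, and of the 22 members in the main test Ccl21c alone was called (limma adjusted p = 0.0393), on a KO group with a single female. WT3 was taken as female, as labelled, although its column header names it male. The call of Ccl21c was lost without KO2, KO3, KO4, WT2, WT3 or WT5. The 7 members called higher in the main test under every alternative that could be run, including sex as a covariate and males alone, were Ccl2, Ccl21a, Cxcl10, Cxcl12, Cxcl16, Ccr2 and Cxcr4, of which Cxcr4 fell under the filter and was not tested without KO3. Of the 12 calls among the members with means from 0.1 to 1, those of Cx3cl1, Cx3cr1, Cxcl5 and Ccl17 were kept under all alternatives that could be run.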

How the data were processed

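PolyA RNA-seq of 9 livers was analysed from 1 deposited table with 1 transcript per gene. The submitters' processing notes name kallisto, sleuth and mm10. The sources used here do not give versions, the transcript set or filters. The library columns hold a deposited signal, kallisto abundances divided by a size factor, which does not sum to the same total in each library. The design had assumed TPM, and the test named for TPM was applied. The p-value, the q-value, the coefficient and the mean observation on a natural log scale are the authors' own values. Here the coefficient was turned to KO minus WT and to log2.

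Normalised reads per value were recovered from the mean observation as reads plus 0.5 on the natural log scale. The coefficient predicted this way lay 0.025 to 0.033 from the deposited one for 90% of 13543 transcripts. For members without a mean observation the reads were estimated from transcript length. Precision is limited by these reads, and for means under 1 they are often below 10.

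Groups follow the labelled genotype. WT3 is labelled female but named male in its column header, and the label was kept. Same-numbered KO and WT livers did not steadily deviate together, with correlations of 0.23, 0.08, -0.18 and 0.11. Whether livers of the same litter deviate together was not tested. The labels name 9 mice, so each library is 1 animal.

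Transcripts were tested with limma 3.58.1 (R 4.3.3) on log2(value + 1) with a mean of at least 1, a prior variance that follows the mean, and two-sided p-values adjusted by Benjamini-Hochberg at 0.05. The wider test used a mean of at least 0.1 and a pseudocount of 0.1. Fold changes on these scales understate low members, and ratios in the text are ratios of mean abundances. Both tests used the same libraries, so they are not independent. The main test was run on simulated data for 10950 transcripts with 200 changed, drawn for the same groups. For simulated log2 differences of 1, 75% were called, for those of 2, 95%, and 6 of 176 calls were false. The simulated noise was independent between transcripts, and far fewer transcripts were changed than the 3934 called in the data. These rates therefore need not hold for the real test. Alternatives were other filters, pseudocounts, scalings, no trend, sex as a covariate, males alone, a replicate block, leaving out each library, and the authors' own test. The repeats of these in the wider test and its pseudocount of 0.5 were added after the data were seen.

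Members and gene lists were chosen with earlier results of these data known. A member is counted but not reported here, and all others are accounted for. Of these, members called in the main test, and Ccl2, are given with their values in every library, and other genes only from the lists, up to 3 per direction by adjusted p. Members called only in the wider test with overlapping groups, and Cxcl3, Ccr3 and Ccr10, were named after their values were seen. Coordinates and transcript types are from GENCODE M21 (GRCm38), which placed 59 of 66 rows, and promoters from RefSeq (GRCm38.p6). Neighbouring genes were joined into a row when less than 200 kb apart. The level of the deleted microRNA is not reported here, and genotypes are those of the labels.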

Additional observations from a re-analysis of the deposited data

Results flagged for a closer look

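In groups of 4 or 5 libraries, a library was set apart when its gap to the next value took up most of the group's range (Dixon's test). Over 47 members and 94 groups this picked out 8 values, and chance alone gives about 5% of groups. WT5 was far above the other WT livers for Cxcl1 (203), Cxcl14 (15.1) and Ccr1 (0.305). Without WT5, Cxcl1 and Cxcl14 were called higher in KO, but neither was called among males alone. WT3 was the highest WT liver for Ccl27a (5.92) and Cxcl15 (0.226) and the lowest for Cxcl5 (0.0439). The other values were that of Ccl12 in WT2 (0.145), where the other WT livers are listed at 0, and that of the second copy of Ccl21a in KO4 (2.82), where the other KO livers are listed at 0.

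The genotype difference of Ccl21c depended on sex in a fit with an interaction term, by 1.95 ± 0.21 on the log2 scale (males minus females; limma adjusted p = 0.0393). Both WT males are listed at 0 for Ccl21c and the 3 WT females lie at 2.12 to 2.88, while the KO female stands at 7.19 and the KO males at 8.09 to 8.84. WT3 (2.13) is labelled female and named male in its column header, and taken as male it would not share the 0 of the other WT males. The fit with that sex was not run. The term rests on 1 KO female and on a row whose reads can be shared with near-identical copies. Of 10950 transcripts 13 had a called interaction.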

How the results depend on the processing

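Over 47 members and their alternatives, 845 values were recomputed. In 746 the direction and the side of the threshold stayed, in 65 a call was lost, in 11 a call was gained, and in 23 the sign changed. None of the 23 was a call in the opposite direction of a called member.

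Looser filters both tested and called more members. Without a filter 17 of 40 ligands and 6 of 22 receptors tested were called. With the wider filter these were 18 of 32 and 5 of 15, against 8 of 17 and 3 of 5 in the main test. Calls over all transcripts rose as well, from 3934 (35.9% of those tested) in the main test to 4677 (30.3%) with the wider filter. Without a filter they were also more than in the main test, but a smaller share of those tested. The authors' own test called 7 ligands and 5 receptors. Leaving out 1 library gave 7 to 10 ligands and 2 to 3 receptors in the main test, and 10 to 16 ligands and 5 to 6 receptors in the wider test, where fewer than 12 ligands were called without KO3 (11), KO4 (10) or WT4 (11). Males alone gave 2336 called transcripts instead of 3934, 2473 instead of 4677 in the wider test, and 3 receptors instead of 5 there, with fewer libraries and with WT3 taken as female. Over all transcripts, equal totals gave 5030 higher and 301 lower calls. With equal totals Ccl9, Ccl24 and Cxcl13 gained a call for a higher level. In the wider test Ccl4, Cxcr2 and Ackr3 gained one, and Cxcl11 lost its call. Leaving out 1 library gave 3114 to 4054 and 3573 to 4735 called transcripts. The genotype-by-sex count of 1 member went to 0 with equal totals and to 0 to 3 without 1 library (3 without WT4: Ccl21c, Cxcl1 and Cxcl14).

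The sign of Cxcl1 turned to 0.23 with equal totals and to 0.82 with the replicate block and without WT5, and its range without 1 library was -0.47 to 0.82. Cxcl14 went to -0.55 among males alone. Cxcl9 went to -0.03 with median-of-ratios factors, to -0.16 with the block, and to below 0 without KO1 (-0.12), KO3 (-0.01), WT4 (-0.02) or WT5 (-0.16), with 0.20 at the upper end. Ackr1 went to 0.24 with equal totals and to 0.04, 0.02 and 0.03 without KO4, WT3 and WT4, with -0.17 at the lower end. Ackr4 went to 0.31 with equal totals, 0.13 with sex in the fit, 0.40 among males alone, and 0.23, 0.09, 0.11 and 0.09 without KO4, WT2, WT3 and WT4, with -0.31 at the lower end. The second copy of Ccl21a went to 0.02 with a pseudocount of 0.5, and Cxcr5 to -0.07 among males alone. All of these were without a call except Cxcl1 with the block and without WT5. The cause was not tested.

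Same-numbered KO and WT livers correlated in their deviations at 0.23, 0.08, -0.18 and 0.11, so the numbers were not taken as pairs. With the replicate block 8 ligands and 3 receptors were called in the main test, but not the same ligands: Ccl5 (adjusted p = 0.0954) and Ccl6 (0.0528) lost their calls, and Cxcl1 (0.0188) and Cxcl14 (1.35, 0.0104) gained one. WT5 shares its number with no KO liver and so adds nothing there. Low depth limits the members with means under 1, and 8 of their 12 calls were lost in at least 1 alternative.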

Other observations

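Of a list of 12 chemokine genes and genes related to them, with names outside the family scheme, 11 were in the table. Of the 6 tested, 4 rose in KO and none fell, beside 21.4% and 14.5% of all transcripts in the main test. Ccrl2, an atypical receptor that presents chemerin, was at 1.75 ± 0.219 in KO and 0.527 ± 0.16 in WT, a ratio of means of 3.32 (limma adjusted p = 0.000489). Cmklr1, the signalling receptor of chemerin on macrophages and dendritic cells, was at 1.69 ± 0.208 and 0.798 ± 0.155 (limma adjusted p = 0.00247). Cklf, a chemokine-like factor, was at 3.12 ± 0.832 and 1.34 ± 0.324 (limma adjusted p = 0.0033). For all 3 genes every KO liver lay above every WT liver. The fourth, Pf4 (platelet factor 4, also named CXCL4), was at 2.14 ± 0.487 and 0.922 ± 0.375 (limma adjusted p = 0.0124), named after its value was seen. Rarres2, which encodes chemerin, was at 755 ± 159 in KO and 731 ± 202 in WT (limma adjusted p = 0.836). Mif was at 144 ± 13.9 and 131 ± 18.2 (limma adjusted p = 0.357). Neither was called, and both were named after their values were seen.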
